A study of Mus musculus with 2 samples.

Results

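Matricellular proteins are secreted proteins of the extracellular matrix that signal to cells rather than bear load. The 10 genes described here are Nov, Cyr61, Ctgf, Wisp1, Wisp2, Tnc, Thbs1, Sparc, Spp1 and Vtn, taken by their symbols from the 27998 genes of the count tables. All 10 were found. They were measured by droplet single-cell RNA sequencing of the cochlea, the spiral organ of hearing, of wild-type C57BL/6 mice at 20 days of age. The samples form 1 group of 2 libraries, made from cochleae of 5 to 8 mice whose cells were freed with trypsin, an enzyme that digests matrix and adhesion proteins. The labels do not say whether the libraries came from separate pools of mice. The p-values measure only how unevenly the classes differ between these libraries, a spread that may be technical. A difference between the libraries that all classes share is fitted as a library effect and does not enter that spread.

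Nov, Cyr61, Ctgf, Wisp1 and Wisp2 belong to the CCN family and carry the newer names Ccn3, Ccn1, Ccn2, Ccn4 and Ccn5. CCN proteins bind integrins, syndecans and Lrp1 and modulate growth factor signals at the cell surface. Cyr61 and Ctgf are textbook targets of the YAP and TEAD transcription factors, which respond to cell stretch and attachment, and Cyr61 is also an immediate early gene. Tenascin C (Tnc) and thrombospondin 1 (Thbs1) are large proteins with many domains that modulate adhesion, and thrombospondin 1 activates latent TGF-beta. Sparc binds collagen and calcium. Osteopontin (Spp1) is an acidic phosphoprotein of bone that binds integrins and Cd44, and vitronectin (Vtn) is an adhesive protein of plasma and matrix. In the rodent cochlea osteopontin is known in marginal cells of the stria vascularis and in spiral ganglion neurons.

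After filtering, library 1 held 1329 cells and library 2 held 640. A unique molecular identifier (UMI) tags each captured transcript, and the median cell had 10601 UMIs in library 1 and 6115 in library 2. The libraries shared 2 barcode sequences. Cells were grouped without the 10 genes, and 10 classes had at least 10 cells in each library. Of these, 5 were named from their markers: connective tissue fibroblast-like (149 cells in library 1 and 166 in library 2), macrophage-like (19 and 16), erythroid cell-like (410 and 39), and clusters 11 (37 and 22, led by Ucma, Frzb and Epyc) and 15 (17 and 28, led by Rnase1, Cndp2 and Dkk2), both non-sensory cochlear epithelium-like. The others kept numbers: cluster 2 (174 and 49, led by Hal, Hpgds and Fn1), cluster 3 (22 and 137, led by Tnfaip6, Sptssb and Rgs16), cluster 4 (66 and 88, led by Lox, Rarres1 and Apold1), cluster 5 (74 and 21, led by Col2a1, Bgn and Dmp1) and cluster 7 (52 and 33, with Hhatl and Kcnk2 among its leading genes). Cluster 5 carried 4 of 9 osteoblast or osteocyte markers (Sp7, Alpl, Dmp1 and Phex) and 2 of 6 chondrocyte markers. It also carried 3 of 9 pericyte or smooth muscle markers (Kcnj8, Abcc9 and Pdgfrb), 2 of 7 cochlear fibrocyte markers and 2 of 9 connective tissue fibroblast markers. Cluster 7 carried 4 of 8 glial markers, 3 of 6 stria marginal cell markers and 3 of 7 cochlear fibrocyte markers (Otos, Car3 and Kcnk2), and no name won. Another 9 classes were too rare in a library to be fitted, among them cells with the markers of hair cells, of spiral ganglion neurons and of supporting cells.

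Levels are given as CPM, the UMIs of a gene in a class and library per 1000000 UMIs of that class and library, and 2 values joined by "and" are those of library 1 and library 2 unless stated otherwise. Each class was compared with the mean of the other 9 fitted classes by edgeR's quasi-likelihood test with the library as a block, and a gene was called where its p, adjusted by Benjamini and Hochberg's method over 5142 genes that had not been used to form the classes, was under 0.05. Log2 folds are given only for genes with a UMI in every fitted class, since those of the others depend on a prior count. The test rescales the UMI totals of the classes (TMM scaling) and CPM does not. Folds and CPM can therefore order classes differently, as for erythroid cell-like cells. Free RNA in the suspension also gives UMIs. Its level can be read in 275 and 60 barcodes of libraries 1 and 2 that had under 300 genes and were 95.1% and 96.0% haemoglobin: each held on average 0.360 and 0.133 Sparc UMIs, 0.189 and 0.167 Spp1 UMIs, 0.0218 and 0.0833 Cyr61 UMIs, and at most 0.0145 UMIs of any other of the 10 genes.

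Promoter sequences from RefSeq (GRCm38.p6) were matched for 5 of the 10 genes, Cyr61, Tnc, Sparc, Spp1 and Vtn. The 250 bases before the transcription start are shown for Cyr61, which was called in 8 of the 10 classes and differed between the libraries, and for Spp1, which was high in 2 classes. Capitals mark CATTCC or GGAATG (the core bound by TEAD factors), TGACG or CGTCA (the core of a cyclic AMP response element) and TATAAA.
Cyr61 (chr3:145649986-145650235, minus strand): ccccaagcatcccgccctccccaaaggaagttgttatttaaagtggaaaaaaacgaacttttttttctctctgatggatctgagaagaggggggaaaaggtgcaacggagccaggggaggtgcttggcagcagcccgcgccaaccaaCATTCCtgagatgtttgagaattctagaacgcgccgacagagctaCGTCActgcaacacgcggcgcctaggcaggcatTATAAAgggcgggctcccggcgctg
Spp1 (chr5:104434861-104435110, plus strand): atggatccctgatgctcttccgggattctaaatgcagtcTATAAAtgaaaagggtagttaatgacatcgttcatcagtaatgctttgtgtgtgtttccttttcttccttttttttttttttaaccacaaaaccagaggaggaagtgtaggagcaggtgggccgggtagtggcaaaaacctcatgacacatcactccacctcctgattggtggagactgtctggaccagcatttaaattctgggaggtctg
The Cyr61 window held CATTCC 103 bases, CGTCA 58 bases and TATAAA 25 bases before the start, none of them overlapping. The Spp1 window held TATAAA 211 bases before the start and neither of the other letters. Of the matched windows not shown, that of Vtn held GGAATG 234 bases and TATAAA 135 bases before the start. That of Tnc held TATAAA 126 bases before the start, and that of Sparc held none of the letters. Over 27025 windows of the same length, 12.6% held the TEAD core and 17.9% the cyclic AMP core on either strand, and 8.12% held TATAAA on the gene's strand. These matches describe letters and not bound sites.

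Of the 10 genes, 9 passed the filter on low counts and Wisp2 did not. Among the 90 pairs of a tested gene and a class, 27 were called higher and 10 lower. Of all tested genes, between 8.65% and 23.9% were called higher in a class and between 0.992% and 18.7% lower. Every tested gene of the 10 was called in at least 1 class, but the like share of all genes was not counted. In cluster 5, 7 of the 9 were higher (Ctgf, Cyr61, Nov, Sparc, Spp1, Vtn and Wisp1), against 9.67% of all tested genes higher and 0.992% lower there; the call of Vtn there rested on 1 cell. Cluster 2 had 4 higher (Cyr61, Nov, Tnc and Wisp1) and 2 lower (Spp1 and Thbs1), against 20.9% and 5.58% of all tested genes. The same 4 were higher and Spp1 lower in cluster 3, where 8.65% and 1.38% of all genes were called. Cluster 4 had 3 higher (Cyr61, Nov and Wisp1), against 18.5% of all genes higher and 4.14% lower. Connective tissue fibroblast-like cells also had 3 higher (Cyr61, Sparc and Vtn), against 13.9% of all genes higher and 2.64% lower. In non-sensory cochlear epithelium-like cluster 11, Ctgf, Sparc and Wisp1 were higher and Spp1 lower, against 15.5% and 6.81% of all genes. In cluster 15, Sparc and Thbs1 were higher and Cyr61 lower, against 13.3% and 6.26%. Cluster 7 had Spp1 higher and Cyr61 lower, against 16.9% and 6.88%. Lower calls in erythroid cell-like cells were Cyr61 and Sparc, against 18.7% of all genes lower and 23.9% higher. In macrophage-like cells Sparc and Wisp1 were lower, against 7.49% of all genes lower and 10.5% higher.

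**Figure D1:**
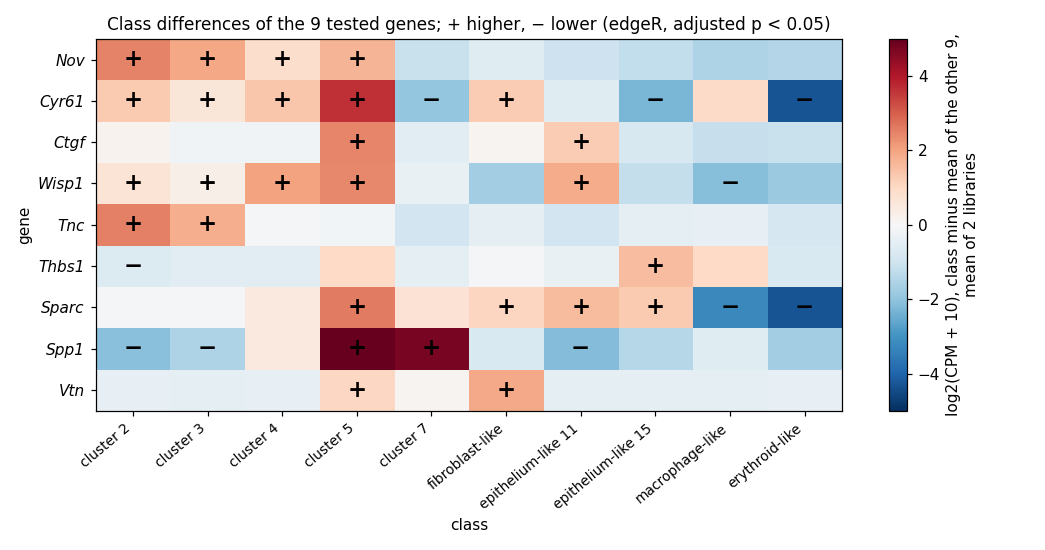
Difference in log2(CPM + 10) between each class and the mean of the other 9, averaged over the 2 libraries, for the 9 tested genes (rows) in the 10 fitted classes (columns). CPM uses plain UMI totals, so colours can differ from the folds of the test, as for Spp1 in erythroid cell-like cells. Plus and minus signs mark the 27 higher and 10 lower calls of the edgeR test, and cluster 5 carries plus signs for 7 genes, that of Vtn from 1 cell.

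Cyr61 (chromosome 3, 145646976 to 145649981, minus strand) was called higher in 5 classes and lower in 3. Cluster 5 stood above all other fitted classes, with 1381 and 4160 CPM in libraries 1 and 2, which is 2770 ± 1965 CPM (SD, n = 2). Below it came cluster 4 (340 and 959 CPM), cluster 2 (307 and 980), fibroblast-like cells (299 and 931), cluster 3 (127 and 949) and macrophage-like cells (340 and 558), a run of 5 classes whose ranges overlapped each other. Cluster 11 had 107 and 229 CPM, cluster 15 had 19.1 and 110, cluster 7 had 62.9 and 65.3, and erythroid cell-like cells had 5.83 and 8.00. After every cell was thinned to 2000 UMIs, 74.3% and 95.2% of cluster 5 cells had a Cyr61 UMI, against 0.976% and 0% of erythroid cell-like cells. Unthinned, the shares were 86.5% and 95.2%, against 6.83% and 10.3%, at median depths of 8099 and 5004 UMIs in cluster 5 and 10689 and 12729 in erythroid cell-like cells. No cell had too few UMIs for the thinning.

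The edgeR log2 fold of Cyr61 against the other classes was 3.44 ± 0.20 (SE, adjusted p = 2.8e-25) in cluster 5, 1.32 ± 0.23 (2.0e-06) in cluster 4, 1.27 ± 0.23 (4.9e-06) in cluster 2 and 1.13 ± 0.23 (9.3e-05) in fibroblast-like cells. In cluster 3 it was 0.90 ± 0.26 (adjusted p = 0.010), but the difference within library 1 alone, which held 22 cells of that cluster, was -0.22 in log2(CPM + 10), against 1.45 within library 2, and DESeq2 did not make this call (adjusted p = 0.13). Lower calls were -2.25 ± 0.33 in cluster 7 (adjusted p = 4.3e-08), -2.77 ± 0.40 in cluster 15 (2.8e-08) and -3.04 ± 0.39 in erythroid cell-like cells (5.1e-10). Without the library as a block, 6 of these 8 calls were lost, with adjusted p = 0.17, 0.38, 0.18, 0.099, 0.28 and 0.13 in clusters 2, 3, 4 and 7, fibroblast-like cells and cluster 15, while those of cluster 5 and erythroid cell-like cells stayed.

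The level of Cyr61 also differed between the libraries within the same class. Fibroblast-like cells had 931 CPM in library 2 and 299 CPM in library 1, cluster 2 had 980 and 307, and cluster 4 had 959 and 340. As log2(CPM + 10), library 2 minus library 1, this was 1.60, 1.64 and 1.47, where 0.873%, 0.475% and 0.544% of all genes measured exceeded 1. The difference was 1.58 in cluster 5, 2.81 in cluster 3, 2.04 in cluster 15 and 1.03 in cluster 11, where 5.55%, 11.2%, 9.26% and 5.00% of genes exceeded 1. It was 0.70 in macrophage-like cells and 0.05 in cluster 7, where 8.37% and 2.77% of genes exceeded 1, and 0.18 in erythroid cell-like cells (0.122%). With 1 library on each side none of these differences has a replicate check.

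In a list of 27 immediate early and heat-shock genes, the library difference was uneven. Their summed level was 37423 CPM in library 2 and 37364 in library 1 for cluster 2, and 23868 and 26782 CPM for fibroblast-like cells. It was higher in library 2 in cluster 3 (42708 CPM, against 29490 in library 1), cluster 5 (36571 against 27587) and cluster 15 (10786 against 5874), and lower in erythroid cell-like cells (1167 against 2290). Fos differed by -0.03, Jun by -0.24, Junb by -0.06 and Egr1 by 0.25 in cluster 2, all early genes of the Fos, Jun and Egr families. In cluster 15, where Cyr61 differed by 2.04, Fos differed by 1.61, Jun by 1.88, Junb by 2.05 and Egr1 by -0.06, and 12 of the 21 listed genes measured there exceeded 1. Atf3, a stress-induced transcription factor, differed by 1.96 in cluster 2, 3.26 in cluster 3, 1.60 in cluster 4, 2.02 in cluster 5 and 0.64 in fibroblast-like cells. It differed by 3.32 in cluster 11, where Cyr61 differed by 1.03. In cluster 15 the Atf3 difference was 2.16, in macrophage-like cells 1.10 and in erythroid cell-like cells 0.23. In cluster 7 Atf3 differed by 1.36 while Cyr61 differed by 0.05. These 5 genes were named outside the rule for named genes, and the part of handling or time in the Cyr61 difference was not tested.

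**Figure D2:**
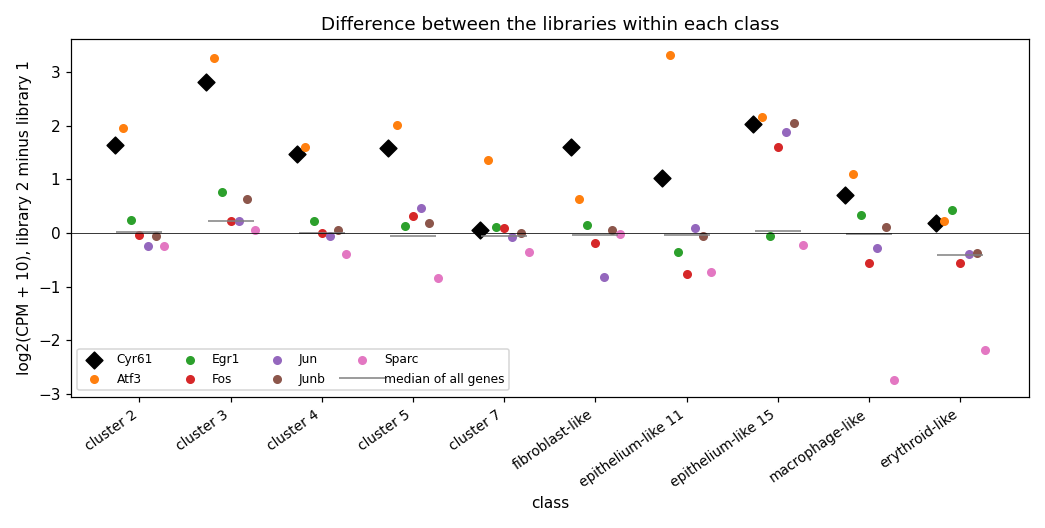
Library 2 minus library 1 in log2(CPM + 10) within each of the 10 fitted classes, for Cyr61 (black diamonds), 5 immediate early genes and Sparc, with grey dashes for the median of all genes measured in the class. Cyr61 lies above 1 in 7 classes, near 0 in cluster 7 (0.05) and erythroid cell-like cells (0.18), and Sparc lies below -2 in macrophage-like (-2.75) and erythroid cell-like cells (-2.19).

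Ctgf (chromosome 10, 24595442 to 24598683, plus strand) was held by fewer cells than Cyr61. It was seen in 109 of 1329 cells of library 1 and 55 of 640 of library 2, where Cyr61 was seen in 494 and 396. Cluster 5 had 123 and 57.6 CPM (90.2 ± 46.1, SD, n = 2; edgeR adjusted p = 3.8e-19) and held 39.9% of all Ctgf UMIs. Cluster 11 came next with 31.6 and 39.2 CPM (35.4 ± 5.35, edgeR adjusted p = 9.1e-05), and the ranges of these classes over the libraries overlapped neither each other nor the rest. In library 2, however, they rest on 6 UMIs in cluster 5 and 7 in cluster 11. Their 95% Poisson intervals there, 21.2 to 125 and 15.7 to 80.7 CPM, overlapped. In cluster 5, 10 of 95 cells held 69.0% of the Ctgf UMIs. The other 8 classes lay between 0 and 17.4 CPM, and macrophage-like cells had no UMI, which allows up to 24.3 and 28.9 CPM. Cluster 2 and fibroblast-like cells, both called for Cyr61, were not called for Ctgf at 9.75 and 17.1 CPM and at 9.02 and 17.4 CPM.

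Nov (chromosome 15, 54745702 to 54754039, plus strand) lay in clusters 2, 3, 4 and 5. Cluster 2 had 117 and 112 CPM (114 ± 3.62, SD, n = 2) and 62.7% of all Nov UMIs, in 133 of its 223 cells. Cluster 3 had 48.2 and 121 CPM, cluster 5 had 106 and 38.4, and cluster 4 had 29.6 and 42.7, so that these 4 formed a run of overlapping neighbours. Fibroblast-like cells followed at 8.12 and 8.18 CPM, below and apart from all 4, and the remaining 5 classes lay between 0 and 7.40 CPM. The edgeR adjusted p was 1.5e-18 in cluster 2, 4.3e-12 in cluster 3, 7.0e-11 in cluster 5 and 4.2e-05 in cluster 4. In library 2 the Nov of cluster 5 rests on 4 UMIs.

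Wisp1 (chromosome 15, 66891320 to 66923201, plus strand), which lies on the same chromosome as Nov, joined the same 4 clusters with cluster 11. Levels were 117 and 221 CPM in cluster 5, 154 and 98.6 in cluster 4, 129 and 95.1 in cluster 11, 73.1 and 30.6 in cluster 2 and 24.1 and 51.4 in cluster 3. The first 3 overlapped each other and lay apart from clusters 2 and 3. Fibroblast-like cells, which held Cyr61 at a level near that of cluster 4, had 2.71 and 3.07 CPM of Wisp1 from 3 UMIs in each library. Higher calls had edgeR adjusted p = 3.6e-12 in cluster 4, 1.1e-08 in cluster 5, 8.3e-08 in cluster 11, 1.4e-04 in cluster 2 and 0.013 in cluster 3. The call in cluster 3 reversed within library 1, where the difference was -0.23 in log2(CPM + 10), against 0.84 within library 2, and it was lost with DESeq2 (adjusted p = 0.29), with RLE scaling (0.059) and without the library block (0.12). Macrophage-like cells had no Wisp1 UMI, which allows up to 24.3 and 28.9 CPM, above the level of fibroblast-like cells. They were called lower (adjusted p = 0.026), a call that was lost with DESeq2 (adjusted p = 0.051) and with RLE scaling (0.11).

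Wisp2 (chromosome 2, 163820861 to 163833146, plus strand) was close to undetected, with 13 UMIs in 5 cells of library 1 and 1 UMI in 1 cell of library 2. A single cell of cluster 5 held 6 of them and a single cell of cluster 15 held 4. It was not tested.

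**Figure D3:**
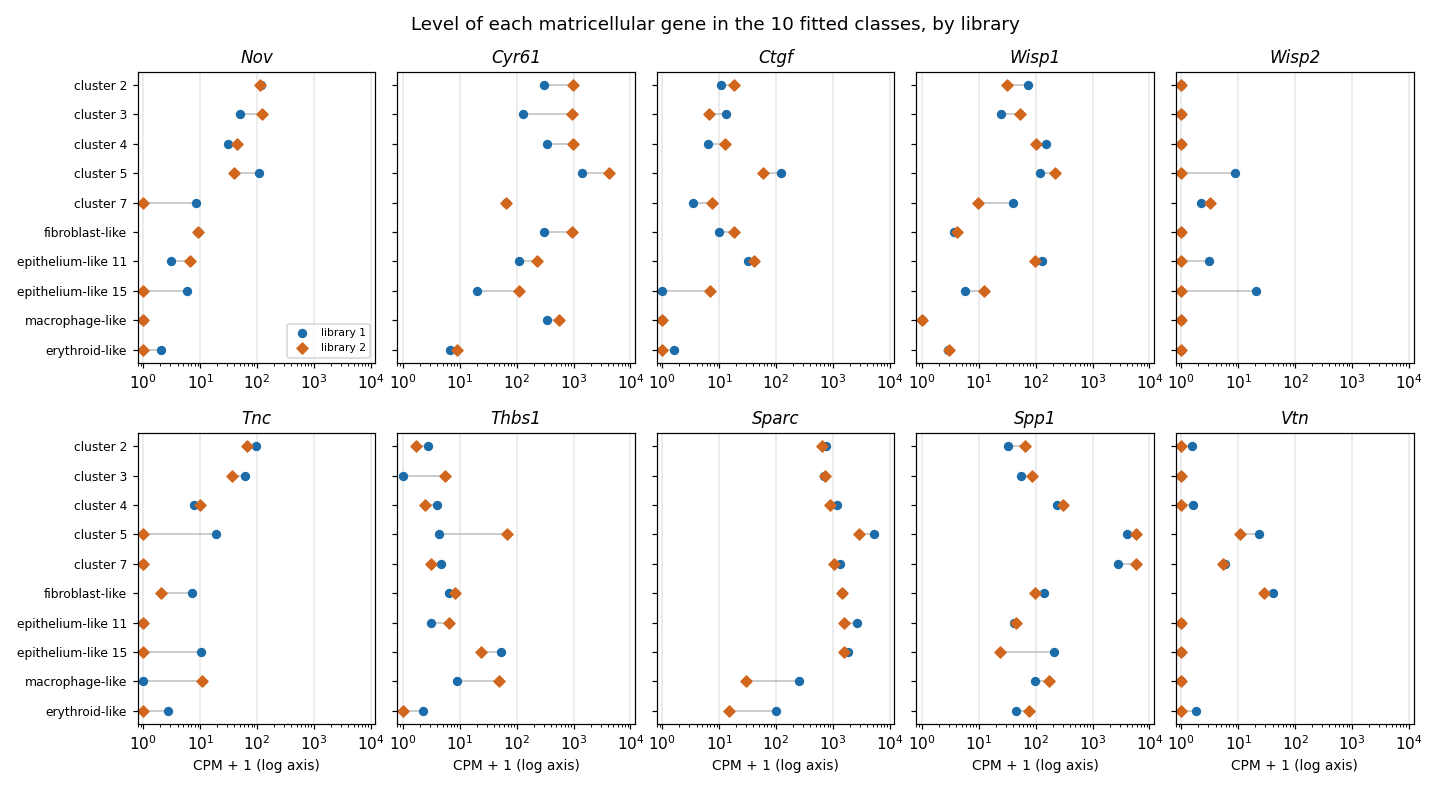
Level of each of the 10 genes as CPM + 1 on a log axis (across) in the 10 fitted classes (down), with blue circles for library 1, orange diamonds for library 2 and grey lines joining them. Long lines mark levels that differ between the libraries, such as Cyr61 in cluster 3 (127 and 949 CPM) and Sparc in erythroid cell-like cells (99.5 and 14.0 CPM).

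Tnc (chromosome 4, 63959785 to 64047015, minus strand) was higher in clusters 2 and 3. Cluster 2 held 80.5% of all its UMIs, with 93.1 and 64.8 CPM (79.0 ± 20.0, SD, n = 2; edgeR adjusted p = 7.1e-25), in 113 of 223 cells. Cluster 3 had 60.3 and 35.8 CPM (48.0 ± 17.3, adjusted p = 1.0e-09), below the range of cluster 2. All other fitted classes lay at 17.9 CPM or less. The 17.9 CPM of cluster 5 came from 16 UMIs, 14 of them in 1 cell. Clusters 7 and 11 had no Tnc UMI, which allows up to 3.70 and 6.53 CPM in cluster 7 and 6.32 and 16.8 CPM in cluster 11.

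Thbs1 (chromosome 2, 118111876 to 118127133, plus strand) had only 87 and 33 UMIs in the cells of the 2 libraries. Cluster 15 had 52.5 and 23.1 CPM (37.8 ± 20.8, SD, n = 2), from 11 and 4 UMIs, and was called higher by edgeR with a log2 fold of 2.75 ± 0.65 (adjusted p = 7.6e-04). Cluster 2 was called lower at 1.80 and 0.713 CPM (log2 fold -1.99 ± 0.65, adjusted p = 0.015), and DESeq2 did not make this call (adjusted p = 0.061). Levels in cluster 5 of 3.35 and 67.2 CPM and in macrophage-like cells of 8.10 and 48.1 CPM rest on few UMIs, with 7 of the 10 of cluster 5 in 1 cell, and both ranges overlapped that of cluster 15. The largest part of all Thbs1 UMIs, 29.2%, lay outside the fitted classes in neutrophil lineage-like cells, of which 11 of 26 had a UMI. Their level was 153 CPM in library 1 (95% Poisson interval 106 to 213, 24 cells), and the 2 cells of library 2 held 1 UMI.

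Sparc (chromosome 11, 55394500 to 55423183, minus strand) was seen in all classes, with UMIs in 80.9% and 86.2% of all cells. Cluster 5 had 5148 and 2853 CPM (4001 ± 1623, SD, n = 2), cluster 11 had 2584 and 1550, cluster 15 had 1823 and 1551, and fibroblast-like cells had 1463 and 1444. Only clusters 11 and 15 overlapped among these 4. Clusters 7 (1347 and 1049 CPM) and 4 (1152 and 876) followed and overlapped each other, as did clusters 3 (699 and 730) and 2 (761 and 643). The edgeR log2 fold was 2.22 ± 0.23 in cluster 5 (adjusted p = 5.5e-11), 1.32 ± 0.25 in cluster 11 (2.8e-05), 0.77 ± 0.26 in fibroblast-like cells (0.027) and 0.75 ± 0.26 in cluster 15 (0.034). Without the library block the last 2 calls were lost, with adjusted p = 0.35 and 0.30. DESeq2 did not call fibroblast-like cells (adjusted p = 0.10), and the call of cluster 15 was lost under a stricter cell filter of 500 genes and 10% mitochondrial UMIs (adjusted p = 0.19).

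Among the fitted classes Sparc was lowest in blood-derived cells, at 251 and 28.9 CPM in macrophage-like cells (edgeR log2 fold -3.14 ± 0.41, adjusted p = 1.4e-08) and 99.5 and 14.0 CPM in erythroid cell-like cells (-1.92 ± 0.34, 6.9e-06). These 2 classes overlapped in CPM. By CPM erythroid cell-like cells were the lower in each library, while by fold macrophage-like cells were the lower. Both were lower in library 2 than in library 1, as were the haemoglobin-rich barcodes with under 300 genes, at 0.133 and 0.360 UMIs per barcode. Erythroid cell-like cells averaged 0.179 Sparc UMIs in library 2 and 1.17 in library 1. Thinned to 2000 UMIs, 16.8% of the 410 erythroid cell-like cells of library 1 and 0% of the 39 of library 2 had a Sparc UMI, against 100% of cluster 5 cells in both. Of macrophage-like cells, 15.8% had a thinned Sparc UMI in library 1 and 12.5% in library 2, below the erythroid share in library 1 and above it in library 2. With haemoglobin genes left out of the totals, erythroid cell-like cells had 338 and 88.9 CPM of Sparc.

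Some classes that were too rare for the test also held much Sparc. Supporting cell-like cells of the organ of Corti, all 28 in library 1, had 12552 CPM (95% Poisson interval 12218 to 12892, which covers counting error only). Cluster 10, led by Otol1, Lfng and Epcam, had 7588 CPM in 54 cells of library 1 and 4754 CPM in 7 cells of library 2. Cluster 14, led by Fabp7, Fzd9 and Hey1, had 3527 and 1634 CPM. Hair cell-like cells had 2055 CPM in 48 cells of library 1 and no UMI in 4 cells of library 2, and 6 cells held 64.0% of their Sparc UMIs. Over both libraries supporting cell-like cells held 15.1% of all Sparc UMIs, and cluster 10 held 15.4%. No test was made for these classes.

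Spp1 (chromosome 5, 104435118 to 104441050, plus strand) fell into high and low classes with little between. Cluster 5 had 4013 and 5879 CPM and cluster 7 had 2758 and 5722 CPM, and their ranges overlapped. That overlap rests on 9 cells of cluster 7 in library 2, described below. Without them cluster 7 had 706 CPM in library 2 and lay below cluster 5 in both libraries. Cluster 4 stood alone at 239 and 301 CPM, below clusters 5 and 7 and above the rest. The other 7 classes lay between 23.1 and 205 CPM, each overlapping its neighbour in the order. Among them are erythroid cell-like cells at 45.0 and 76.0 CPM, or 153 and 482 CPM with haemoglobin genes left out, and the 205 CPM of cluster 15 in library 1 came mostly from 1 cell. By edgeR the log2 fold was 4.79 ± 0.28 in cluster 5 (adjusted p = 9.2e-10) and 4.52 ± 0.29 in cluster 7 (1.1e-09). Thinned to 2000 UMIs, 63.5% and 61.9% of cluster 5 cells and 63.5% and 63.6% of cluster 7 cells had a Spp1 UMI, against 9.02% and 7.69% of erythroid cell-like cells. Unthinned, the shares were 78.4% and 76.2% in cluster 5, 75.0% and 84.8% in cluster 7, and 37.3% and 41.0% in erythroid cell-like cells. Lower calls in clusters 2 (-2.49 ± 0.48, adjusted p = 7.4e-04), 3 (-1.77 ± 0.52, 0.038) and 11 (-2.60 ± 0.58, 0.0028) concern levels of 32.3 to 83.9 CPM. In plain CPM these are about those of erythroid cell-like cells, but they lie below the erythroid levels with haemoglobin genes left out. On the rescaled totals of the test, erythroid cell-like cells had a fold of 0.39 ± 0.43 and were not called. The call in cluster 3 was lost with RLE scaling (adjusted p = 0.13) and without the library block (0.073).

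Most of the Spp1 of cluster 7 in library 2, 2348 of 2629 UMIs, came from 9 cells. A finer clustering set these 9 apart, led by Kcne1, Slc12a2 and Mt3, and named them stria marginal cell-like. They held 189 UMIs of Kcne1, a potassium channel subunit of marginal cells, where the other 76 cells of cluster 7 held 1, and 12 UMIs of the fibrocyte markers. Their Spp1 ran between 2 and 550 UMIs a cell with a median of 224, which summed to 38178 CPM (95% Poisson interval 36649 to 39754). Without them cluster 7 had 2758 CPM in library 1 and 706 CPM in library 2, carried the fibrocyte markers Otos, Car3 and Kcnk2, and still had Spp1 called higher (log2 fold 3.26, edgeR adjusted p = 2.9e-04). The lower calls of cluster 3 (adjusted p = 0.26) and cluster 11 (0.055) were lost in that fit. It was chosen after the data had been seen.

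Spp1 was also high in 2 cell types too rare for the test. All 6 spiral ganglion neuron-like cells, from library 1, held between 93 and 128 Spp1 UMIs, which summed to 3047 CPM (95% Poisson interval 2823 to 3284). Stria intermediate cell-like cells, the pigment cells of the stria, had 1100 CPM in 19 cells of library 2 (890 to 1344) and 417 CPM in 2 cells of library 1. In cluster 5 Spp1 was uneven, with 63.0% of its UMIs in 10 of 95 cells and up to 498 in a cell, while 21 cells had no UMI.

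**Figure D4:**
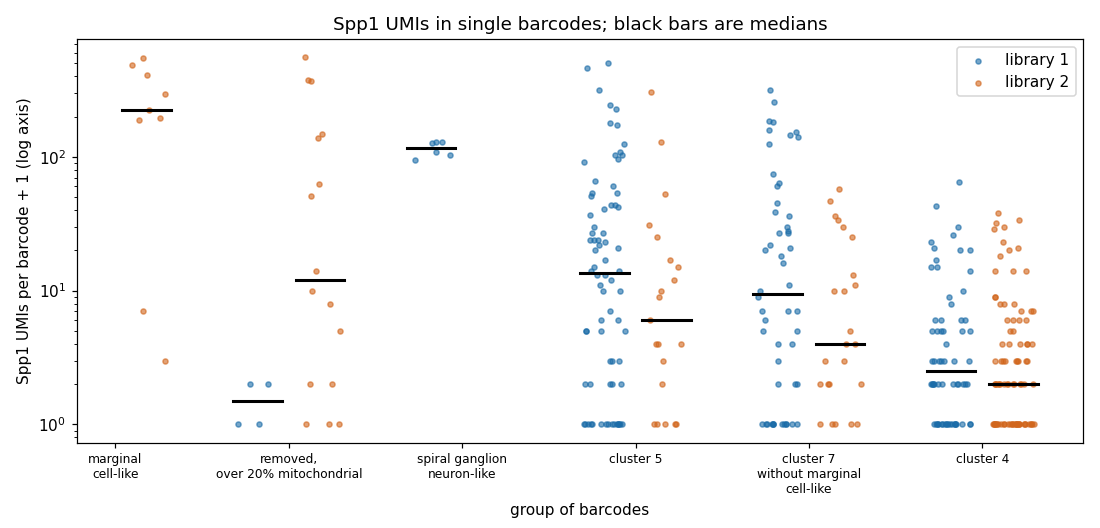
Spp1 UMIs in single barcodes plus 1 on a log axis, by group of barcodes, with blue points for library 1, orange points for library 2 and black bars for medians. The 9 marginal cell-like cells (median 224) and the 6 spiral ganglion neuron-like cells (median 116) stand above the medians of cluster 5 (12.5 in library 1) and of cluster 7 without the 9 cells (8.50 in library 1), and the barcodes removed for over 20% mitochondrial UMIs reach 554 in library 2.

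Vtn (chromosome 11, 78499091 to 78502324, plus strand) was higher in fibroblast-like cells. They had 40.6 and 27.6 CPM (34.1 ± 9.19, SD, n = 2; edgeR adjusted p = 9.2e-15) and 64.9% of all Vtn UMIs, in 54 of 315 cells with at most 3 UMIs a cell. Cluster 5 was called as well (adjusted p = 2.1e-06) at 22.3 and 9.61 CPM, but 18 of its 21 UMIs lay in 1 cell and without that cell the call was lost (adjusted p = 0.35), a fit added after the data had been seen. The call of fibroblast-like cells stayed (4.3e-15). Cluster 7 had 4.93 and 4.35 CPM, and all other fitted classes were under 1 CPM or had no UMI in either library.

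A finer clustering gave cell groups with different mixes of Nov, Tnc and Wisp1. Cells led by Hal, Hpgds and Mybpc1, 156 of 157 from cluster 2, had Tnc at 129 and 77.7 CPM, Nov at 103 and 94.3 CPM and Wisp1 at 62.3 and 27.1 CPM. Cells led by Ccnd2 and Gm10600, 83 in all, had Nov at the like level of 104 and 85.3 CPM with Tnc at only 14.8 and 12.9 CPM and Wisp1 at 124 and 73.4 CPM. Cells led by Lox, Rarres1 and Coch, all 98 from cluster 4, had Wisp1 at 140 and 127 CPM with Nov at 10.5 and 19.1 CPM and Tnc at 1.16 and 2.12 CPM. These 3 patterns were seen in both libraries. Cells led by Tnfaip6, Sptssb and Notum, 126 of 146 from cluster 3, had all 3 genes, as the Hal cells did. Their levels were 113 and 121 CPM of Nov, 75.3 and 38.0 CPM of Tnc and 54.8 and 43.5 CPM of Wisp1. These are sums over cells, and whether single cells held the genes together was not counted. Cells led by Rgs16, Emcn and Fam71a, 33 of 49 from cluster 3, had Nov at 53.2 and 111 CPM, Tnc at 0 and 23.0 CPM and Wisp1 at 177 and 71.0 CPM, with only 6 cells in library 1. Spp1 stood at 362 and 547 CPM in the Lox cells, against 63.4 and 156 CPM in the Ccnd2 cells and 24.8 and 48.0 CPM in the Hal cells. Cyr61 did not follow the split, and ran between 216 and 376 CPM in library 1 and between 837 and 1028 CPM in library 2 over the Hal, Ccnd2 and Lox cells. These values are a description, with no test.

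**Figure D5:**
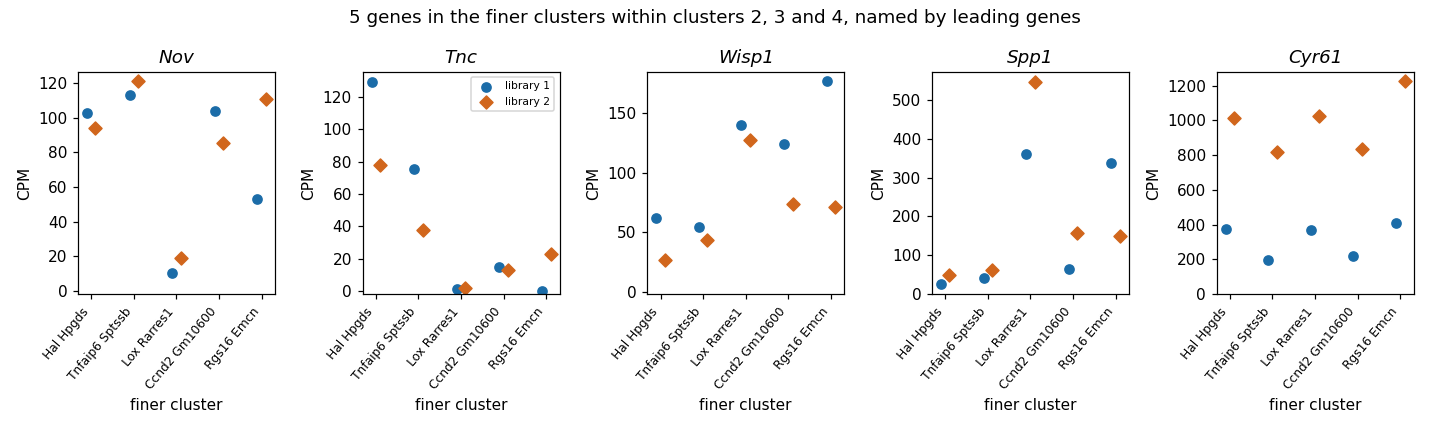
CPM of Nov, Tnc, Wisp1, Spp1 and Cyr61 in the 5 finer clusters that make up most of clusters 2, 3 and 4, named on the axis by their first 2 leading genes, with blue circles for library 1 and orange diamonds for library 2. Tnc is highest in the Hal cells (129 and 77.7 CPM) and Spp1 in the Lox cells (362 and 547 CPM), and each panel has its own axis.

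Other matricellular genes, from a list of 28 of which 19 were tested, were called higher most often in cluster 5 and fibroblast-like cells. In cluster 5, 10 of the 19 (52.6%) were higher, against 9.67% of all tested genes, and the list's median log2 fold was 1.92, against 0.07 for all. In fibroblast-like cells 9 (47.4%) were higher, against 13.9% of all genes (median 0.73 against 0.10). Clusters 2 and 4 each had 7 higher (36.8%), against 20.9% and 18.5% of all genes, and 2 lower (10.5%), against 5.58% and 4.14%. Cluster 3 had 6 higher (31.6%, against 8.65%), and cluster 11 had 6 higher (31.6%, against 15.5%) and 5 lower (26.3%, against 6.81%). Cluster 7 was near the share of all genes with 4 higher (21.1%, against 16.9%) and 1 lower (5.26%, against 6.88%), and macrophage-like cells had 2 higher (10.5%, against 10.5%) and 3 lower (15.8%, against 7.49%). Cluster 15 had 3 higher (15.8%, against 13.3%) and 5 lower (26.3%, against 6.26%), and erythroid cell-like cells had 1 higher (5.26%, against 23.9%) and 7 lower (36.8%, against 18.7%). Smoc1, a calcium-binding relative of Sparc, reached 117 and 115 CPM in cluster 5 (edgeR adjusted p = 4.9e-21) and 66.8 and 168 CPM in cluster 15 (3.5e-14). Sparcl1, a close relative of Sparc, was higher in cluster 4, at 1149 and 911 CPM (log2 fold 2.36 ± 0.22, edgeR adjusted p = 2.4e-15), and lower in cluster 15 at 52.5 and 17.4 CPM (-3.30 ± 0.44, 2.1e-09). Tgfbi, an adhesive protein induced by TGF-beta, was higher in fibroblast-like cells at 520 and 765 CPM (4.42 ± 0.18, edgeR adjusted p = 1.3e-38) and lower in cluster 11 at 2.11 and 0 CPM (6.9e-08). It was also higher in cluster 5 at 347 and 317 CPM (edgeR adjusted p = 1.5e-23) and in macrophage-like cells at 291 and 279 CPM (3.9e-15). Mgp, an inhibitor of mineralisation, had 2050 CPM in library 1 and 9.61 CPM in library 2 in cluster 5 (6.07 ± 0.56, edgeR adjusted p = 3.7e-05). In library 2 this was below the 59.6 CPM of cluster 4, so the high level of cluster 5 was seen in library 1 only.

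Receptors, from a list of 31 of which 24 were tested, were spread over the classes. Many of their counts were near the share of all tested genes. Clusters 2 and 4 and fibroblast-like cells each had 5 of the 24 higher (20.8%), against 20.9%, 18.5% and 13.9% of all genes, and cluster 3 had 2 (8.33%, against 8.65%). Higher shares were found in clusters 5 and 7, with 8 each (33.3%, against 9.67% and 16.9% of all genes), in cluster 11 and macrophage-like cells, with 7 each (29.2%, against 15.5% and 10.5%), and in cluster 15, with 6 (25%, against 13.3%). Erythroid cell-like cells had 4 higher (16.7%, against 23.9%) and 9 lower (37.5%, against 18.7%). Lower calls were 6 in cluster 11 (25%, against 6.81%), 4 in cluster 15 (16.7%, against 6.26%), and 3 in macrophage-like cells and in clusters 2 and 4 alike (12.5%, against 7.49%, 5.58% and 4.14%). Cluster 7 and fibroblast-like cells had 2 lower each (8.33%, against 6.88% and 2.64%). List medians lay between -0.68 in erythroid cell-like cells and 0.54 in cluster 5. Itgb8, an integrin subunit that activates latent TGF-beta, had 181 and 155 CPM in cluster 7 (edgeR adjusted p = 8.0e-24). Itga8, whose integrin binds osteopontin, vitronectin and tenascin C, had 213 and 240 CPM in cluster 5 (log2 fold 3.10 ± 0.24, edgeR adjusted p = 2.4e-20) and 203 and 198 CPM in fibroblast-like cells (2.96 ± 0.20, 1.5e-23). Cd44, the osteopontin and hyaluronan receptor, was higher in cluster 11, at 211 and 241 CPM (4.58 ± 0.29, edgeR adjusted p = 4.7e-20), and lower in clusters 2, 4 and 7, at 5.39 CPM or less. Ptprz1, a receptor of tenascins, had 167 and 145 CPM in cluster 15 (edgeR adjusted p = 1.3e-14). Cd36, a thrombospondin receptor, had 146 and 192 CPM in macrophage-like cells (1.7e-20) and 51.9 and 12.0 CPM in erythroid cell-like cells (1.6e-33).

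Of the genes of TEAD and TGF-beta signalling, 24 of 27 were tested. Higher were 14 in cluster 2 (58.3%, against 20.9% of all tested genes; median log2 fold 0.94 against 0.14), 13 in cluster 4 (54.2%, against 18.5%; 0.92 against 0.12), 10 in cluster 5 (41.7%, against 9.67%; 1.06 against 0.07) and 9 in fibroblast-like cells (37.5%, against 13.9%; 0.71 against 0.10). Near the share of all genes were the higher calls of cluster 3 (3, 12.5% against 8.65%), cluster 7 (4, 16.7% against 16.9%), cluster 11 (5, 20.8% against 15.5%) and cluster 15 (3, 12.5% against 13.3%). Macrophage-like cells had 5 higher (20.8%, against 10.5%) and 6 lower (25%, against 7.49%). Lower calls were 10 in erythroid cell-like cells (41.7%, against 18.7%, with 1 higher) and 5 in cluster 11 (20.8%, against 6.81%). In cluster 7, cluster 15 and fibroblast-like cells 2 each were lower (8.33%, against 6.88%, 6.26% and 2.64%), and in cluster 2 it was 1 (4.17%, against 5.58%). Wwtr1, the YAP relative TAZ, had 125 and 122 CPM in fibroblast-like cells (edgeR adjusted p = 7.8e-09) and 115 and 76.9 CPM in cluster 5 (7.3e-05). Wwtr1, Yap1, Tead1 and Tead2 had no UMI in macrophage-like cells, which allows up to 24.3 and 28.9 CPM of each. The part of these genes in the level of Cyr61 was not tested.

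Of the immediate early and heat-shock genes all 27 were tested. Higher were 20 in cluster 4 (74.1%, against 18.5% of all tested genes; median log2 fold 1.09 against 0.12), 19 in cluster 2 (70.4%, against 20.9%; 1.26 against 0.14) and 16 in cluster 3 (59.3%, against 8.65%; 1.14 against 0.06). In cluster 5 and in macrophage-like cells 14 each were higher (51.9%, against 9.67% and 10.5%; medians 1.01 against 0.07 and 0.79 against -0.35), and in fibroblast-like cells 11 (40.7%, against 13.9%; 0.44 against 0.10). Macrophage-like and fibroblast-like cells had 1 lower each (3.70%, against 7.49% and 2.64%). Lower were 20 in cluster 11 (74.1%, against 6.81%; -2.08 against 0.00), 18 in cluster 15 (66.7%, against 6.26%; -1.88 against 0.00, with 1 higher), 19 in erythroid cell-like cells (70.4%, against 18.7%; -1.39 against -0.04, with 4 higher) and 12 in cluster 7 (44.4%, against 6.88%; -0.72 against 0.09, with 3 higher). Summed over the list, levels were 37364 and 37423 CPM in cluster 2, against 6596 and 6335 in cluster 11 and 5874 and 10786 in cluster 15. Klf2, a transcription factor, had 3651 and 2753 CPM in cluster 2 (2.52 ± 0.20, edgeR adjusted p = 9.8e-20) and 56.9 and 72.8 CPM in cluster 11 (-3.79 ± 0.38, 5.9e-15). It was also higher in cluster 3 (3261 and 4267 CPM, edgeR adjusted p = 3.2e-22), cluster 4 (3613 and 3001 CPM, 1.8e-20) and fibroblast-like cells (3.2e-07). Clusters 7 and 15 were called lower for it too. The part of the listed genes in the Cyr61 differences between classes was not tested.

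Across the 10 fitted classes, the held-out genes whose mean log2(CPM + 10) was most like that of each member are given as a description, with classes that share libraries as the points. For Nov they were Npy (neuropeptide Y, Pearson r = 0.97), Sept5 (0.96) and Gnb4 (0.94). For Ctgf they were Fbn2 (fibrillin 2, 0.95), Mn1 (0.93) and Fst (follistatin, 0.92). For Wisp1 they were Atoh8 (0.95), Smad6 (an inhibitor of BMP signalling, 0.90) and Rnf122 (0.90). For Tnc they were C130060K24Rik (0.91), Amdhd1 (0.88) and Cnr1 (a cannabinoid receptor, 0.88). For Spp1 they were Pgf (placental growth factor, 0.95), Cml3 (0.91) and 2900055J20Rik (0.89). For Vtn they were Ralyl (0.98), Arnt2 (0.98) and Rasgrp2 (0.95). For Cyr61 they were Npm1 (0.95), Tnfsf12 (0.94) and Gm10020 (0.94), for Thbs1 Mid1ip1 (0.95), Cep85 (0.94) and Ap1s2 (0.91), and for Sparc Tmem53 (0.97), 1300002E11Rik (0.97) and Morf4l2 (0.96).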

How the data were processed

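Single-cell RNA was measured in 2 libraries of P20 mouse cochlea. The authors deposited whole-number UMI counts, for which the submitters' processing notes name Cell Ranger 2.1.0 and mm10. The selection of barcodes was not given in the sources used here. The libraries held 1610 and 720 barcodes and 20212520 and 7094752 UMIs, of which haemoglobin genes were 25.4% and 12.6%.

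Barcodes under 300 genes or over 20% mitochondrial UMIs were left out, and Scrublet (scanpy 1.11.5) marked 2 and 4 doublets, which were removed. Clustering (30 principal components, 15 neighbours, Leiden resolution 1.0) used 2024 genes; the 10 members, 113 listed genes and the genes with an even identifier checksum, 13961 genes in all, were held out. Clusters were called X-like when at least 3 markers and 40% of a list (26 lists, 204 of 206 markers found) were higher and no other list came within 20 percentage points. Of 22 clusters, 4 erythroid ones were merged, which left 19 classes.

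Each class gave a sum of raw counts in each library, 20 sums for 10 classes. These were fitted in edgeR 4.0.16 under R 4.3.3 with TMM scaling, filterByExpr (minimum count 10) and robust quasi-likelihood. The library was a replicate block because the classes of a library come from the same suspension. Benjamini-Hochberg adjustment ran within each contrast over the 5142 held-out genes that passed. Fitted folds are given only for genes with a UMI in every class. CPM uses the plain UMI total. Intervals are exact at 95% and cover counting error only, and where no UMI was seen the limit is that of 3 counts. The script was tested on simulated data. Alternatives included DESeq2 1.42.0. Symbols and coordinates are from the files and GENCODE (GRCm38).

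The members, lists and markers were chosen with earlier results of these data known. All 10 members are named; of each list and class, up to 4 called genes with the largest fold could be named; likeness names the 3 genes with the highest correlation.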

Additional observations from a re-analysis of the deposited data

Results flagged for a closer look

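Barcodes of library 2 that had been removed for over 20% mitochondrial UMIs held Spp1 at 13035 CPM, 1725 of 132338 UMIs in 16 barcodes. This is a signal in data outside the comparisons. The 7 of these barcodes with a Kcne1 UMI, a marker of stria marginal cells, held 1690 of the Spp1 UMIs, and the highest had 554. The 4 barcodes removed for the same reason in library 1 had 2 Spp1 UMIs, or 70.4 CPM. The other members had between 0 and 42 UMIs in the 16 barcodes, with 42 of Sparc, 4 of Cyr61 and 3 of Wisp1.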

How the results depend on the processing

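Among the tested alternatives with the same 10 classes, the count of higher calls among the members lay between 20 and 29 (27 as reported) and that of lower calls between 7 and 13 (10 as reported). Coarser clusters gave 23 and 10 over 9 fitted classes, and finer ones 34 and 9 over 12, so those counts are over other pairs. Without the replicate block, 20 and 7 pairs were called, and 10 of the 37 reported calls were lost, 6 of them of Cyr61. Calls over all 5142 tested genes also fell in every class there. In cluster 2 they fell from 1077 to 881 higher and from 287 to 165 lower. With no filter on low counts, higher calls over all genes rose in every class, to 1233 of 8848 in cluster 2. RLE scaling lost 3 of the 37 calls, DESeq2 lost 5, the stricter cell filter lost 1, leaving out the 9 marginal cell-like cells lost 2, and leaving out the cluster 5 cell with most Vtn UMIs lost that of Vtn; the last 2 alternatives were added after seeing the data. No filter on low counts, no doublet removal and adjustment over all genes lost 0 of the 37. Within a single library, values with no test, 25 to 27 of the higher calls and all 10 lower calls kept their sign; in cluster 3, Cyr61 was -0.22 and Wisp1 -0.23 without replicate 2, which reversed them, against 1.45 and 0.84 without replicate 1. Thinning to 1000 instead of 2000 UMIs lowered 7 of 10 shares of cells, 1 per member, and left 3 the same. Of the 27 genes most like a member, 14 remained with a pseudocount of 1 CPM. Member levels above those of erythroid cell-like cells in both libraries numbered 57, and 45 with haemoglobin genes left out of the library size. The planned comparison of fibrocyte-like with fibroblast-like cells was not run, since no cluster met the fibrocyte name. Depth limits Thbs1, Vtn, Wisp2 and every class of library 2 with few cells; 2 libraries give 1 estimate of spread, which may be technical.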

Other observations

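Classes that were too rare in library 2 for a test also held CCN genes. Cluster 14 had Cyr61 at 380 CPM in 40 cells of library 1 (95% Poisson interval 339 to 423) and 233 CPM in 6 cells of library 2, and Wisp1 at 153 CPM (128 to 182) and 66.7 CPM. Cluster 10 had Cyr61 at 127 CPM (102 to 156) and Wisp1 at 140 CPM (113 to 170) in library 1. Hair cell-like cells had Cyr61 at 193 CPM (163 to 227) in library 1 and 194 CPM in 4 cells of library 2, and Wisp1 at 36.2 CPM (23.9 to 52.7) in library 1. Supporting cell-like cells of the organ of Corti, which held the highest Sparc level of any class, had Cyr61 at 4.68 CPM (0.567 to 16.9) and Wisp1 at 18.7 CPM (8.08 to 36.9).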
